A study of Mus musculus with 39 samples.

Results

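The livers described here lacked Hif1a in hepatocytes (HLKO, labelled Alb-Cre+ Hif1afl/fl), and their response to 4 h of 6% oxygen against 21% oxygen was measured from circadian time 4 (CT4) to CT8 by sequencing total RNA. The comparison rests on 6 of the 39 samples listed in the series, chosen by their labels: HLKO CT4 6% A, B and C, and HLKO CT4 21% A, B and C. It covers the 9483 genes, of 11873 in the count table, that passed a filter on low counts. The mice were C57BL/6, aged 3 to 5 months, and had lived for 2 weeks in 12 h of light per day. On the day of exposure they stayed in darkness with free access to food. Livers of Alb-Cre controls (Alb) exposed at CT4, and of HLKO mice exposed from CT16 to CT20, each with 3 libraries at 6% and 3 at 21% oxygen, serve below to ask where the response of HLKO livers at CT4 differed. All these mice carry Cre under the albumin promoter, which acts in hepatocytes, so the other cells of an HLKO liver keep Hif1a and its hepatocytes keep Epas1, which encodes the related subunit HIF-2 alpha. No label says whether the libraries of a group came from separate animals, so the p-values measure only a spread between libraries. That spread was estimated over 36 libraries in 12 groups. These also include Alb livers exposed from CT16 and livers lacking Bmal1 in hepatocytes (BLKO) at both times.

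Cells sense oxygen through prolyl hydroxylases (encoded by Egln1, Egln2 and Egln3), which mark the alpha subunits HIF-1 alpha and HIF-2 alpha for destruction through the protein Vhl. When oxygen falls, the alpha subunits persist, pair with Arnt and bind a short core element in DNA, switching on genes for glycolysis, blood vessel growth, iron handling and metabolic restraint. In liver, low oxygen also meets the hormones of fasting and stress and the circadian clock, whose factors act on many of the same genes.

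Library totals ran from 2471886 to 4684547 counts in the 6% group and from 2017236 to 2996656 counts in the 21% group. Replicates differed by more than counting error (chi-square per degree of freedom 8.361 to 9.037 within the 6% group and 4.999 to 5.914 within the 21% group), so no library was a copy of another. Among the controls, Alb CT4 21% A (21.46 and 19.73 against B and C, which gave 5.326 between them) and Alb CT4 6% A (13.25 and 17.15, against 8.646) stood apart. Levels are CPM, read counts scaled to library size by TMM, in the order A, B and C, and they are not divided by gene length, so levels of different genes are not compared. Changes are log2 fold changes of 6% against 21% oxygen ± SE from edgeR's quasi-likelihood test, and a gene is called when its p, adjusted over all 9483 genes by Benjamini and Hochberg, is under 0.05. Hepatocyte markers fit the tissue label: their summed level was 117300 to 133100 CPM in the 6% libraries and 131400 to 138900 CPM in the 21% libraries.

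In all, 1368 genes (14.4%) were called, 731 higher (7.71%) and 637 lower (6.72%) in 6% oxygen. Of these, 386 were at least 2-fold higher and 282 at least 2-fold lower, and 121 and 59 passed 4-fold. The 3 libraries at 6% did not overlap with the 3 at 21% in 1309 of the called genes, and in 3225 of all tested genes (34%). A lack of overlap in a called gene, stated for some genes below, is therefore the usual case. The count fell to 903 without HLKO CT4 6% A and to 912 without HLKO CT4 21% C. The shares of 7.71% higher and 6.72% lower are the background for each list count in HLKO livers at CT4 below. In whole liver, fewer cells of a type and less RNA per cell cannot be told apart.

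**Figure D1:**
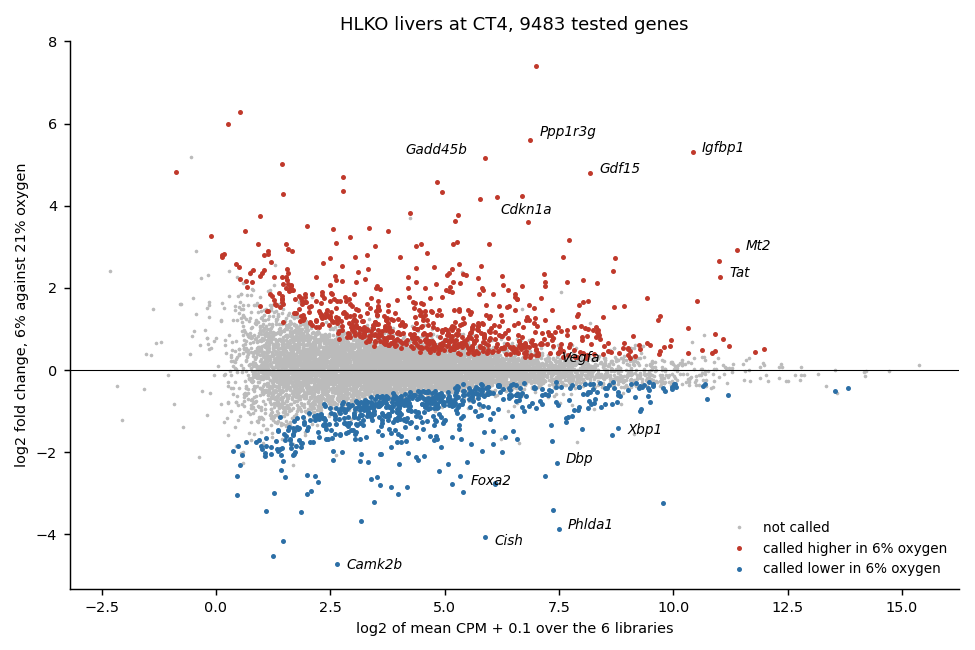
Change in 6% against 21% oxygen (log2, vertical) against mean level over the 6 libraries (log2 of CPM + 0.1, horizontal) for each of 9483 tested genes in HLKO livers at CT4. Red points are the 731 called higher and blue points the 637 called lower; Ppp1r3g and Igfbp1 lie toward the top, and Camk2b and Cish at the bottom.

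Hif1a itself (chromosome 12, 73901375 to 73947530, GRCm38) was low, at 9.57, 7.002 and 4.4 CPM in HLKO livers under 6% oxygen and at 3.35, 4.44 and 7.92 CPM under 21% oxygen. The groups overlapped (0.43 ± 0.44, adjusted p = 0.554). Counts are given per gene, with no split by the deleted part, and bulk liver includes cells that keep the allele, so these levels do not check the genotype label. Epas1 stood at 178, 138 and 198 CPM in 6% oxygen and 151, 144 and 119.7 CPM in 21% oxygen (0.30 ± 0.13, adjusted p = 0.101). Among 8 tested subunits and sensors, 2 rose. The prolyl hydroxylase Egln3 was at 26.6, 23.3 and 20.02 CPM in 6% oxygen and 12.4, 8.56 and 12.9 CPM in 21% oxygen (1.07 ± 0.26, adjusted p = 0.00415), and Egln2 rose by 0.61 ± 0.14 (adjusted p = 0.00283). Both sensors were higher in every 6% library than in any 21% library, while Egln1, Arnt and Vhl were not called.

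Many HIF targets outside glycolysis rose in livers whose hepatocytes lack Hif1a. Of 50 listed genes 35 were tested, and 20 of these (against 7.71% of all tested genes) were called higher, with a median change of 1.07 against 0.03 over all tested genes. The count stayed between 18 and 20 when each library was left out. For 3 members with rises of over 4 on the log2 scale, the RefSeq promoter (GRCm38.p6, from 250 bases before to 50 after the start) is printed with the HIF core in capitals, ACGTG or GCGTG on either strand, which reads CACGT or CACGC where it lies on the other strand.
Igfbp1, chr11:7197537-7197836, plus strand: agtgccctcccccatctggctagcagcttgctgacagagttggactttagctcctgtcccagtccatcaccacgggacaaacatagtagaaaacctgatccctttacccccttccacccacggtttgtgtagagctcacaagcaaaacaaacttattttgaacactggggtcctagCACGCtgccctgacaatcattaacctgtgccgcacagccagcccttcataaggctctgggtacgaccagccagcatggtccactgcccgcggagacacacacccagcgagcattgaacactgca
Hilpda, chr6:29272238-29272537, plus strand: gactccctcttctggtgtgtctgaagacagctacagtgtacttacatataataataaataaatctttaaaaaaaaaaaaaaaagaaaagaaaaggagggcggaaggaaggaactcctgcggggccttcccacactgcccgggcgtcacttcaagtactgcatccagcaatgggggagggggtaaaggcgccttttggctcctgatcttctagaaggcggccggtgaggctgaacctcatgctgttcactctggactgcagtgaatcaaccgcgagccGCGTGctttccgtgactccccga
Ddit4, chr10:59951721-59952020, minus strand: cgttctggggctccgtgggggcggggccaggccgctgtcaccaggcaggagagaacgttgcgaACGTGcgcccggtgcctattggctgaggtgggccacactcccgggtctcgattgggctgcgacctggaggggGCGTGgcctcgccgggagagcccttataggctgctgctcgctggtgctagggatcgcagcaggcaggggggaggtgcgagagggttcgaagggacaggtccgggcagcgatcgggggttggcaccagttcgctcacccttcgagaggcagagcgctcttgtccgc
These windows hold 1, 1 and 2 core matches. Over the genes with a promoter in the table, the core was present in 64.3% of 7650 tested genes, 63.9% of 585 called higher, 62.3% of 525 called lower and 14 of 15 HIF targets called higher (93.3%). A match is a description of letters and not a bound site, and the target list was chosen with results known.

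Igfbp1, a liver protein that binds insulin-like growth factors and is raised in fasting, was at 2129, 1649.5 and 4284 CPM in 6% oxygen and 79.97, 63.7 and 60.7 CPM in 21% oxygen, a 39.6-fold rise (5.31 ± 0.40 on the log2 scale, adjusted p = 3.42e-11). Hilpda, a lipid droplet protein that inhibits the lipase ATGL, stood at 80.5, 103 and 221 CPM in 6% oxygen and 5.27, 4.12 and 11.5 CPM in 21% oxygen (4.22 ± 0.58, adjusted p = 3.45e-06). Ddit4, which restrains the growth kinase mTORC1, had 90.04, 75.8 and 145 CPM in 6% oxygen and 4.79, 4.44 and 7.59 CPM in 21% oxygen (4.17 ± 0.50, adjusted p = 2.79e-07). In none of these 3 genes did the groups overlap.

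The kinase gene Pim3 was higher in all 6% libraries, with 603, 630.4 and 979 CPM in 6% oxygen and 114, 103 and 114 CPM in 21% oxygen (2.74 ± 0.16, adjusted p = 1.06e-13). Smaller rises were called for the haem oxygenase Hmox1 (2.54 ± 0.49), the HIF co-activator inhibitor Cited2 (2.29 ± 0.39), the insulin receptor substrate Irs2 (2.12 ± 0.40), Ndrg1 (2.00 ± 0.24), the vasodilator peptide Adm (1.77 ± 0.44), the histone demethylase Kdm3a (1.46 ± 0.31) and the mitophagy receptor Bnip3 (0.79 ± 0.21). Vegfa, the blood vessel growth factor, was at 147, 185 and 257 CPM in 6% oxygen and 133, 126 and 143 CPM in 21% oxygen and missed the threshold (0.54 ± 0.21, adjusted p = 0.0737). Its groups did not overlap, which also held for 34% of all tested genes. P4ha1, Mxi1, Ak4 and Higd1a were also among the 15 tested targets that were not called, with changes of 0.84, 0.37, 0.38 and -0.13.

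**Figure D2:**
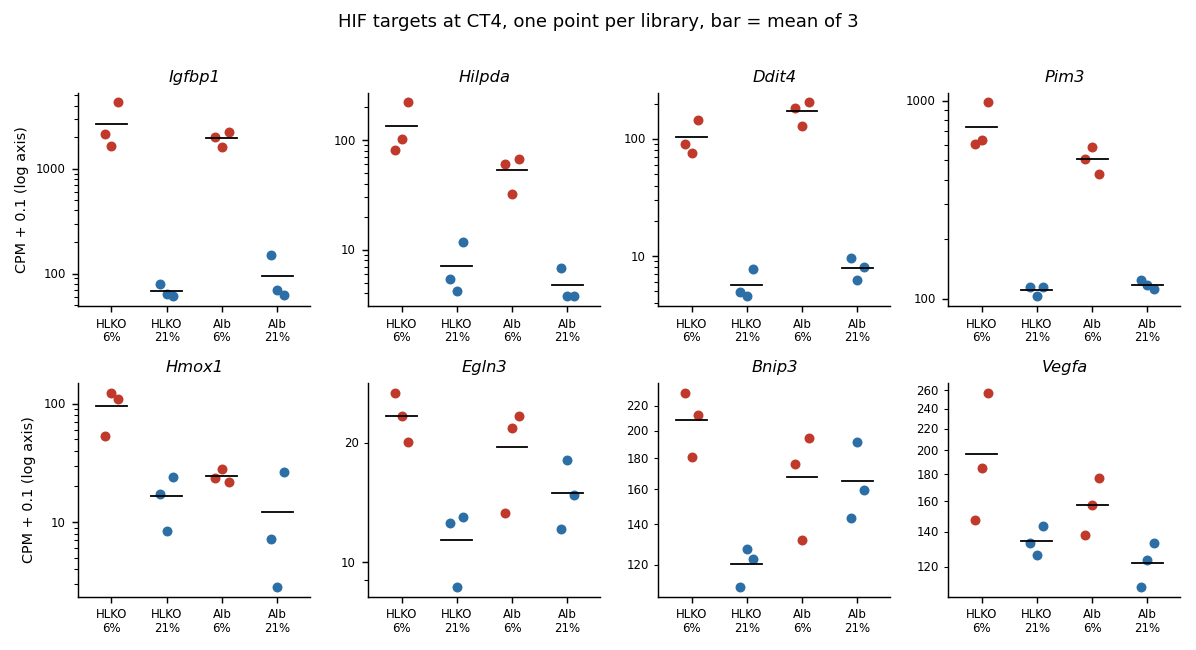
Levels of 8 HIF targets (CPM + 0.1, log axis) in each library of HLKO and Alb livers at CT4 under 6% (red) and 21% oxygen (blue); bars are means of 3 libraries. In HLKO livers the 6% libraries lie above the 21% libraries in all 8 genes, and Vegfa is the 1 not called.

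Glycolytic genes moved in both directions. The list of glucose uptake and glycolysis had 6 of 19 tested genes higher and 4 lower (median 0.27). The glucose transporter Slc2a1 was at 27.4, 32.5 and 29.6 CPM in 6% oxygen and 11.97, 8.56 and 8.25 CPM in 21% oxygen (1.67 ± 0.23, adjusted p = 3.81e-06), and the pyruvate kinase Pkm rose by 0.91 ± 0.22 (adjusted p = 0.00462). The count of falls depended on single libraries: it was 0 without HLKO CT4 6% A, 1 without 6% B, 6% C, 21% A or 21% B, and 3 without 21% C. The count of rises was 3 without 6% C and 4 without 21% B or C. Gapdh, called lower (-3.41 ± 1.17, adjusted p = 0.0469), was at 24.7, 25.5 and 35.6 CPM in 6% oxygen and 838, 40.9 and 32 CPM in 21% oxygen. HLKO CT4 21% A alone was high. Without that library the change of Gapdh was -0.39 (adjusted p = 0.873), and the call was also lost without 6% A (0.143), 6% B (0.122) or 6% C (0.0891).

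Pdk4, which shuts pyruvate out of the mitochondrial fuel cycle, was at 37.4, 18.3 and 121 CPM in 6% oxygen and 1.92, 2.53 and 3.63 CPM in 21% oxygen (4.32 ± 0.64, adjusted p = 9.53e-06), and Pdk1, the HIF-1 target among these kinases, was not called (0.40 ± 0.36, adjusted p = 0.495). All 3 called genes of 16 tested in glycogen metabolism encode regulatory subunits that target a phosphatase to glycogen. Ppp1r3g was at 310.5, 195 and 182 CPM in 6% oxygen and 4.31, 6.02 and 3.63 CPM in 21% oxygen (5.60 ± 0.61, adjusted p = 4.93e-08). Ppp1r3c rose by 1.61 ± 0.32 and Ppp1r3b by 1.20 ± 0.21, and in all 3 the groups did not overlap.

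Genes of glucose output rose as well: 9 of 16 tested genes of gluconeogenesis were called higher (median 0.77). G6pc, the enzyme that frees glucose for release, was at 681, 619 and 769 CPM in 6% oxygen and 88.6, 77.6 and 218 CPM in 21% oxygen (2.42 ± 0.31, adjusted p = 8.73e-07). The orphan receptor gene Nr4a1 rose by 3.38 ± 0.40, the kinase gene Sik1 by 2.74 ± 0.49 and the fasting transcription factor gene Foxo1 by 0.98 ± 0.16. Amino acid breakdown and the urea cycle had 13 of 37 tested genes higher and 2 lower (0 without 6% C and 1 without any other library). Tat, which breaks down tyrosine, was at 3573, 3585 and 3181 CPM in 6% oxygen and 894, 569 and 692 CPM in 21% oxygen (2.26 ± 0.19, adjusted p = 2.30e-10). Slc38a2, an amino acid importer, rose by 2.11 ± 0.18, the transaminase Got1 by 1.56 ± 0.19 and Cth, which makes cysteine, by 1.53 ± 0.22, with no overlap between groups in any of them.

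Glucocorticoid targets and immediate early genes were the lists with the largest shares called higher. Of 18 tested genes of the glucocorticoid list (the receptor gene included) 12 rose (median 1.58), a count that stayed at 11 or 12 when each library was left out. Cdkn1a, the cell cycle inhibitor p21, was at 162, 181 and 249 CPM in 6% oxygen and 11.5, 11.4 and 8.25 CPM in 21% oxygen (4.25 ± 0.20, adjusted p = 2.59e-16), with narrow spread on both sides. Sgk1, a kinase that regulates ion transport, was at 69.9, 62.6 and 73.3 CPM in 6% oxygen and 9.58, 6.65 and 7.59 CPM in 21% oxygen (3.13 ± 0.31, adjusted p = 6.94e-09). Cebpd, a transcription factor gene, was called higher (adjusted p = 4.58e-05), at 4.37, 6.38 and 4.4 CPM in 6% oxygen and 0.479, 0 and 0 CPM in 21% oxygen. Other widely used indicators of the receptor were not called: Tsc22d3 changed by -0.23 ± 0.23 (adjusted p = 0.54) and Fkbp5 by -0.18 ± 0.22 (adjusted p = 0.641), and the receptor gene Nr3c1 by 0.35 ± 0.17 (adjusted p = 0.161). Mt1 and Mt2, which bind zinc and are also on this list, were called, but HLKO CT4 21% A was high for both. Mt2 was at 5323, 4861 and 4085 CPM in 6% oxygen and 1409, 272 and 206 CPM in 21% oxygen (2.92 ± 0.66, adjusted p = 0.00243), and no 21% library reached the lowest 6% library.

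Of 24 tested immediate early genes 19 rose (median 1.57), and the count lay between 15 and 18 when each library was left out. Atf3, a stress-induced transcription factor, was at 26.2, 27.2 and 52.9 CPM in 6% oxygen and 1.92, 2.53 and 2.64 CPM in 21% oxygen (3.81 ± 0.72, adjusted p = 0.000294). Maff rose by 3.78 ± 0.38, the antiproliferative gene Btg2 by 2.58 ± 0.44, Klf4 by 2.27 ± 0.51 and the phosphatase gene Dusp1 by 1.84 ± 0.29. Cell cycle arrest, p53 targets and Gadd45 genes were higher in 9 of 15 cases. Lists share members, so their counts are not separate. Cdkn1a is also on the glucocorticoid list, Btg2 on the immediate early list, and Nr4a1 on the immediate early and gluconeogenesis lists. Igfbp1 is on the HIF and glucocorticoid lists, Hilpda on the HIF and lipid droplet lists, and Pdk4 also on the fat oxidation list. Gadd45b was at 96.1, 93.7 and 156 CPM in 6% oxygen and 2.87, 2.85 and 3.63 CPM in 21% oxygen (5.17 ± 0.43, adjusted p = 2.30e-10). The secreted stress cytokine Gdf15 was at 414, 532 and 741 CPM in 6% oxygen and 17.7, 17.4 and 25.4 CPM in 21% oxygen (4.79 ± 0.37, adjusted p = 4.72e-11). In both genes the lowest 6% library was more than 10-fold above the highest 21% library.

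Gdf15 and Atf3 also stand on the list of the integrated stress response, the programme set off when translation initiation is restrained, of which 7 of 17 tested genes rose and 2 fell (1 without any library other than 6% B). The pseudokinase gene Trib3 rose by 1.63 ± 0.34 (adjusted p = 0.00108) and Ddit3, which encodes CHOP, by 1.10 ± 0.27 (adjusted p = 0.00464). Inhbe, a secreted liver protein of the activin family, was at 8.53, 8.85 and 10.01 CPM in 6% oxygen and 36.4, 45.3 and 66.96 CPM in 21% oxygen (fell by 2.46 ± 0.31, adjusted p = 8.72e-07), so members of the list moved in opposite directions. Of 21 tested genes of the unfolded protein response 4 fell and 1 rose, against 6.72% lower and 7.71% higher over all tested genes. Xbp1, the transcription factor of that pathway, was at 215, 275 and 236 CPM in 6% oxygen and 620.1, 606 and 717 CPM in 21% oxygen (fell by 1.42 ± 0.21, adjusted p = 1.24e-05), whereas the chaperone Hspa5 was not called (-0.21 ± 0.29, adjusted p = 0.668). The count of 4 was 1 without 6% B, 21% B or 21% C and 2 without 6% A or 6% C.

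Of 30 tested heat shock chaperones 8 fell (against 6.72% of all tested genes) and 22 were not called, with a median of -0.37 over the 30. Hspa1b was at 10.8, 6.59 and 10.4 CPM in 6% oxygen and 44.5, 58.9 and 83.8 CPM in 21% oxygen (fell by 2.78 ± 0.37, adjusted p = 1.55e-06). Hsph1 fell by 2.00 ± 0.38 and Hsp90ab1 fell by 0.79 ± 0.15, with no overlap between the groups in these 3 genes. The count was 5 without 6% A. Cirbp, an RNA-binding protein induced by cooling, moved the other way, at 61.3, 53.95 and 52.1 CPM in 6% oxygen and 15.3, 12.99 and 13.2 CPM in 21% oxygen (2.02 ± 0.18, adjusted p = 1.28e-09), while Rbm3, the other cold-inducible gene of the list, was not called (-0.11 ± 0.29, adjusted p = 0.834). No label gives the body temperature of the mice, and its part in these values was not tested.

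The clock genes split. Of 13 tested genes driven by BMAL1, 4 rose and 3 fell, and both counts held when each library was left out. Dbp, a transcription factor at the output of the clock, was at 77.4, 78.3 and 21.6 CPM in 6% oxygen and 274, 262 and 338 CPM in 21% oxygen (fell by 2.27 ± 0.35, adjusted p = 2.28e-05). Per3 fell by 2.18 ± 0.36 and Tef fell by 1.0 ± 0.20. Per1, a clock repressor also driven by stress hormones, was at 78.6, 88.1 and 85.7 CPM in 6% oxygen and 18.2, 24.4 and 26.1 CPM in 21% oxygen (1.86 ± 0.24, adjusted p = 8.26e-07), and Ciart (2.01 ± 0.33) and Bhlhe40 (2.35 ± 0.30), repressors of the BMAL1 complex, rose too. Arntl, which encodes BMAL1, was low in both groups, at 6.24, 5.15 and 11.2 CPM in 6% oxygen and 1.44, 1.9 and 0.99 CPM in 21% oxygen (2.26 ± 0.43, adjusted p = 0.000375). Nfil3, a repressor that opposes Dbp, rose by 2.34 ± 0.23. Nr1d1, which encodes REV-ERB alpha, was not called (127, 123 and 193 CPM in 6% oxygen and 184, 207 and 176 CPM in 21% oxygen, -0.36 ± 0.26, adjusted p = 0.367).

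Genes of lipid storage and of fat oxidation were called higher more often than lower. Of 23 tested genes of lipid droplets, lipases and the ANGPTL family 8 rose and 1, Angptl8, fell (adjusted p = 0.0164, and 0.0746, 0.0592 and 0.0759 without 6% A, 6% B and 21% C). The droplet coat gene Plin4 was at 55.7, 76.6 and 32.04 CPM in 6% oxygen and 1.44, 2.22 and 2.97 CPM in 21% oxygen (4.58 ± 0.55, adjusted p = 3.67e-07). Plin5, which ties droplets to mitochondria, was at 146, 167 and 188 CPM in 6% oxygen and 36.4, 43.4 and 41.6 CPM in 21% oxygen (2.03 ± 0.20, adjusted p = 6.42e-09). Of 49 tested genes of fatty acid oxidation, ketogenesis and PPARA targets 12 rose and 1 fell (median 0.45), and the count of rises lay between 9 and 14 when each library was left out. Eci2, an isomerase of this pathway, was at 402, 354 and 459 CPM in 6% oxygen and 219, 233 and 242 CPM in 21% oxygen (0.80 ± 0.15, adjusted p = 0.000252), and Slc22a5, which imports carnitine, was at 17.3, 18.7 and 16.4 CPM in 6% oxygen and 6.7, 8.87 and 10.9 CPM in 21% oxygen (0.96 ± 0.24, adjusted p = 0.00502). Cpt1a, which gates fat entry into mitochondria, was not called (0.24 ± 0.16, adjusted p = 0.355). In fat synthesis 4 of 26 tested genes rose and 5 fell, against 7.71% and 6.72% of all tested genes. Mlxipl, the sugar-sensing factor ChREBP, was at 165, 157 and 166 CPM in 6% oxygen and 332, 329 and 295 CPM in 21% oxygen (fell by 0.97 ± 0.14, adjusted p = 3.73e-06), while Srebf1, its insulin-driven counterpart, rose by 0.80 ± 0.22 (adjusted p = 0.0117, and 0.0778, 0.0588 and 0.075 without 6% B, 21% B and 21% C). The count of 5 was 2 without 6% A and 3 without 6% C, 21% A or 21% B. The count of 4 was 2 without 21% C.

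Several transcription factors and feedback genes of hepatocytes were lower. Of 18 tested hepatocyte identity factors 7 fell (median -0.38), with 5 without 6% A and 6 without 21% C. Foxa2 was at 13.1, 11.3 and 9.61 CPM in 6% oxygen and 72.8, 79.8 and 53.4 CPM in 21% oxygen (fell by 2.57 ± 0.31, adjusted p = 3.88e-07). Foxa1 fell by 2.81 ± 0.43 and Onecut1 fell by 2.84 ± 0.51, whereas Hnf4a was not called (-0.33 ± 0.12, adjusted p = 0.06). Of 16 tested genes of growth hormone and STAT5 signalling 6 fell and 1 rose. Cish, a feedback inhibitor that STAT5 switches on, was at 3.95, 8.24 and 8.01 CPM in 6% oxygen and 139, 137 and 58.4 CPM in 21% oxygen (fell by 4.07 ± 0.76, adjusted p = 0.000286). Stat5b itself rose by 1.10 ± 0.15 (adjusted p = 2.63e-06). The count of 6 was 2 without 21% B, 3 without 6% A and 4 without 21% A. Onecut1 is counted on both the identity and the STAT5 list, and Xbp1 on the identity and unfolded protein response lists. Phlda1, a feedback gene of growth factor signalling, was at 13.5, 18.5 and 40.4 CPM in 6% oxygen and 424, 451 and 134 CPM in 21% oxygen (fell by 3.87 ± 0.69, adjusted p = 0.000159). Igf1, the hormone that growth hormone drives in liver, was not called (0.36 ± 0.23, adjusted p = 0.304).

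Of 74 tested ribosomal protein genes 24 fell and 50 were not called, with a median of -0.29 over the 74. Rpl35a was at 184, 66.3 and 164 CPM in 6% oxygen and 324, 327 and 468 CPM in 21% oxygen (fell by 1.44 ± 0.28, adjusted p = 0.000503), and Rpl10a fell by 0.60 ± 0.15 (adjusted p = 0.0046). The count was 12, 5 and 10 without 6% A, B and C, and 10, 22 and 7 without 21% A, B and C. HLKO CT4 6% B had the lowest Rpl35a level of the 6 libraries. Several of these genes have processed copies elsewhere in the genome that could take some of their reads. Of 74 tested subunits of oxidative phosphorylation 5 fell and 1 rose, a share of falls near that of all genes. The 5 became 1 without 6% B or C, 2 without 21% A or C and 3 without 21% B, and the rise was lost without any 1 of the 6 libraries. NRF2 antioxidant targets rose in 6 of 23 cases, against 7.71% of all tested genes. Among them were Gclc, the first enzyme of glutathione synthesis (1.06 ± 0.19), and Gsta2 (1.78 ± 0.44, adjusted p = 0.0056, and 0.103 without 6% A). Complement and coagulation genes fell in 5 of 38 cases, against 6.72% of all tested genes. The count was 3 without any of 6% A, B or C or 21% C, near that share.

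**Figure D3:**
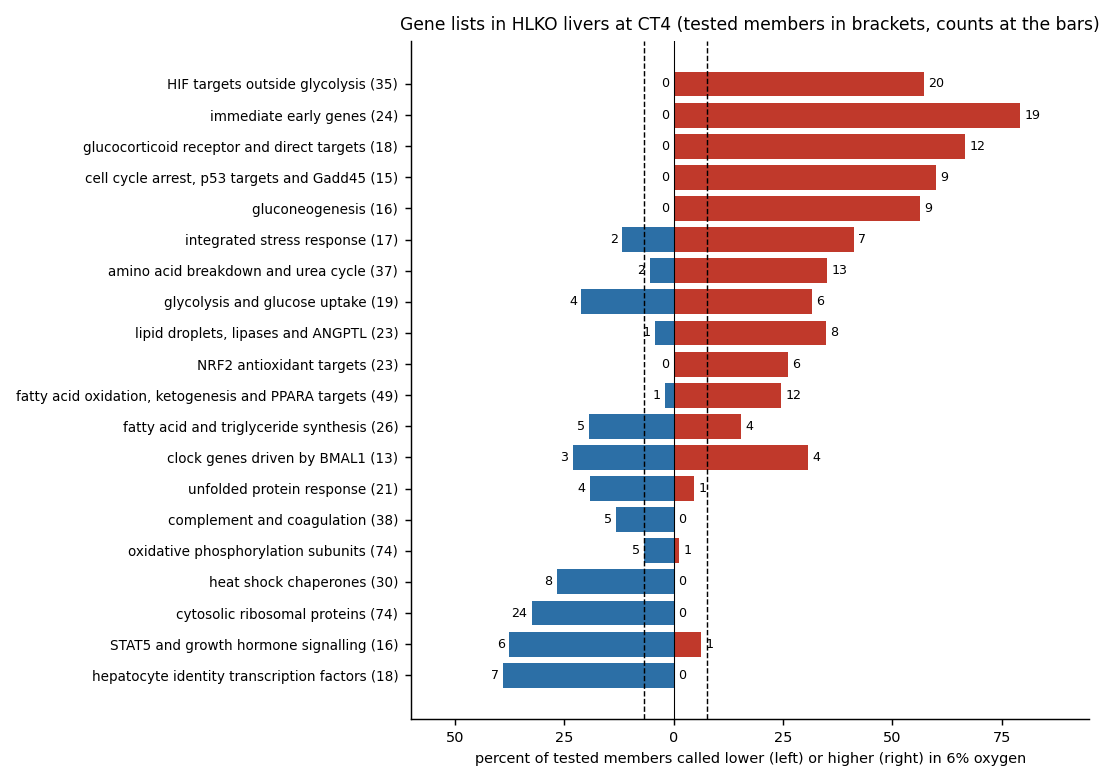
Percent of tested members called higher (right, red) and lower (left, blue) in 6% oxygen for 20 gene lists in HLKO livers at CT4; numbers at the bars are counts, and dashed lines mark the shares over all tested genes, 7.71% higher and 6.72% lower. Immediate early genes (19 of 24), glucocorticoid targets (12 of 18), cell cycle arrest and p53 genes (9 of 15) and HIF targets (20 of 35) extend far to the right. Hepatocyte identity factors (7 of 18) and STAT5 signalling genes (6 of 16) extend to the left.

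The same exposure of Alb livers at CT4 called 869 genes (9.16%), 501 higher (5.28%) and 368 lower (3.88%). The count was 727 without Alb CT4 21% A and 777 without Alb CT4 6% A, the libraries that stood apart, and 497 without Alb CT4 21% B. Across 9483 genes the HLKO and Alb changes at CT4, which share no library, correlated with r = 0.46, a description across genes that are not independent. Genes called in both with the same sign numbered 388, which is 28.4% of the HLKO calls and 44.6% of the Alb calls. In Alb livers 13 of the 35 HIF targets rose and 1 fell (median 0.67). Igfbp1 was at 2014, 1622 and 2241 CPM in Alb livers under 6% oxygen and 150.4, 70.1 and 62.2 CPM under 21% oxygen (4.38 ± 0.38, adjusted p = 9.66e-10), and no library of either group overlapped with the other. Hilpda rose by 3.54 ± 0.63 and Ddit4 by 4.46 ± 0.47.

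The test of the difference between the HLKO and Alb responses at CT4 called 150 genes (1.58%), 94 with a positive difference, HLKO minus Alb (0.991%), and 56 with a negative one (0.591%). DESeq2 called 234. The call count was 171 without Alb CT4 21% A and 137 without Alb CT4 6% A, but 17 without Alb CT4 21% B. Without other libraries it was 59 (HLKO 6% A), 82 (HLKO 6% B), 64, 99 and 73 (HLKO 21% A, B and C) and 61 (Alb 6% B). For HIF targets 0 of 35 differences were called by edgeR, and 1 (Ccng2, chosen after its value was seen) was called by DESeq2. An unadjusted p under 0.05 was found for 8 of the 35, all of them positive, and for 1699 of all 9483 tested genes in either direction. The median difference over the 35 was 0.63, against 0.00173 over all tested genes, and 2 were called without HLKO 21% B and 1 without Alb 21% C. The difference, HLKO minus Alb, was 0.92 ± 0.48 for Igfbp1, -0.29 ± 0.73 for Ddit4 and 0.18 ± 0.29 for Vegfa, and a p over the threshold does not show that the responses were alike.

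Of the lists with more than 4 tested genes, fat oxidation had the largest share of called differences between genotypes: 10 of 49 genes had one, all positive as HLKO minus Alb. In Alb livers none of the 49 rose and 8 fell (median -0.30), and 0 of these falls were called without Alb CT4 21% B. Eci2 was at 237, 250.2 and 183 CPM in Alb livers under 6% oxygen and 276, 233 and 242 CPM under 21% oxygen (-0.17 ± 0.15), and its response was higher in HLKO by 0.97 ± 0.21 (adjusted p = 0.0186). Acot1, a thioesterase with close paralogs, was at 95.7, 48.6 and 115 CPM in 6% oxygen and 21.5, 36.4 and 41.9 CPM in 21% oxygen in HLKO, and at 23.6, 22.8 and 19.01 CPM in 6% oxygen and 27.2, 116 and 63.7 CPM in 21% oxygen in Alb (difference 3.02 ± 0.63, adjusted p = 0.0139). Its rise within HLKO (adjusted p = 0.0344) was lost without 6% A (0.104), 6% C (0.123), 21% A (0.144), 21% B (0.0773) or 21% C (0.0565). The 6% level of Eci2 in HLKO was above all Alb libraries. Slc22a5 (difference 1.61 ± 0.35), Hsdl2 (1.18 ± 0.24) and the droplet enzyme Hsd17b13 (1.66 ± 0.36) followed the same direction. The count of 10 was 4 without HLKO 6% A or 21% A, 5 without HLKO 21% C or Alb 6% B, 6 without HLKO 6% C, HLKO 21% B or Alb 6% A, and 15 without Alb 21% A. Without Alb CT4 21% B it was 1, the difference of Eci2 was still called, and adjusted p was 0.0887 for Acot1, 0.0768 for Slc22a5, 0.0711 for Hsdl2 and 0.0543 for Hsd17b13. Xbp1 had the opposite difference (-1.49 ± 0.30, adjusted p = 0.0139, and 0.0574 without Alb CT4 21% B). Igsf11, an adhesion protein, was at 16.2, 15.2 and 10.4 CPM in 6% oxygen and 3.35, 0.951 and 2.31 CPM in 21% oxygen in HLKO and not called in Alb (difference 3.35 ± 0.47, adjusted p = 0.000462).

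**Figure D4:**
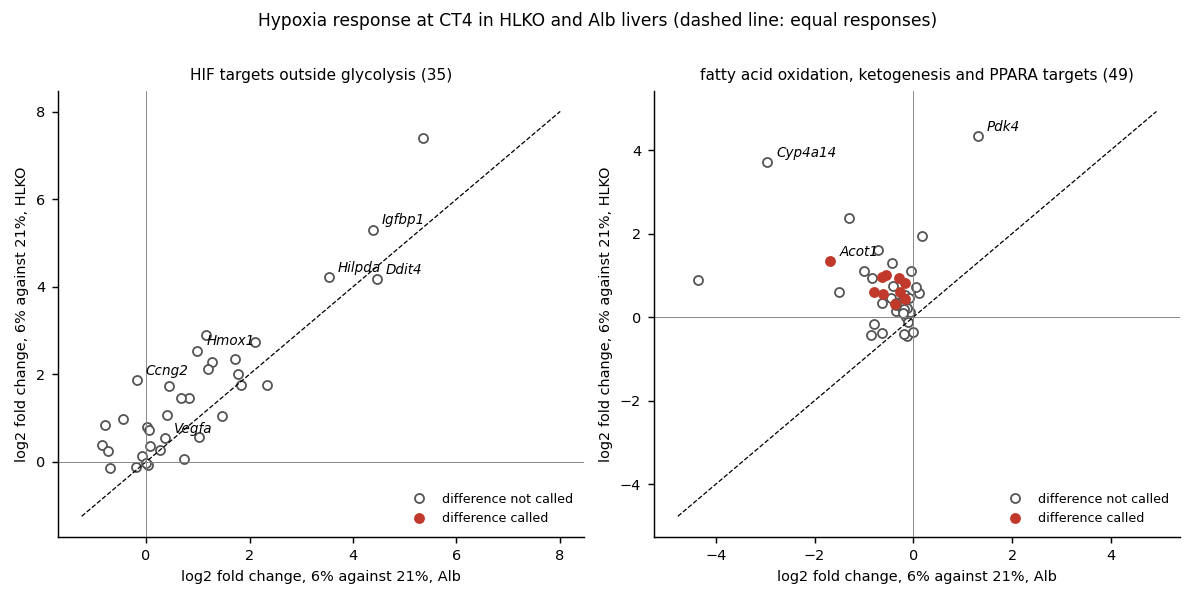
Log2 fold change of 6% against 21% oxygen at CT4 in HLKO (vertical) against Alb livers (horizontal) for 35 HIF targets (left) and 49 genes of fat oxidation (right); filled points have a called difference, and the dashed line marks equal responses. No HIF target is filled, and the 10 filled genes of fat oxidation lie above the line.

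The HLKO response was also set against that of HLKO livers exposed from CT16. There, 924 genes were called (9.74%), 512 higher (5.4%) and 412 lower (4.34%), and the difference between CT4 and CT16 was called for 819 genes (8.64%), 458 with a positive difference, CT4 minus CT16 (4.83%), and 361 with a negative one (3.81%). The difference count was 492 without HLKO CT4 6% A, 490 and 540 without HLKO CT16 6% A and C, and 463 without HLKO CT16 21% B. The CT16 count was 556, 565 and 502 without HLKO CT16 6% A, 21% A and 21% B. The difference, CT4 minus CT16, was positive and called for 11 of 35 HIF targets (8 to 13 with a library left out) and for 22 of 49 genes of fat oxidation (15 to 25). A positive difference can hold a fall at CT16 as well as a rise at CT4. At CT16, 7 HIF targets rose and 3 fell (median 0.05), and of the genes of fat oxidation none rose and 16 fell (median -0.39, and 10 falls without HLKO CT16 21% B). Acot1 stood at 65.5, 75.1 and 81.3 CPM in 6% oxygen and 412, 644 and 235 CPM in 21% oxygen at CT16 (-2.54 ± 0.42, adjusted p = 0.000125). Igfbp1 was at 2292, 3495 and 2806 CPM in 6% oxygen and 969, 644 and 884 CPM in 21% oxygen at CT16, where the 6% levels overlapped with those at CT4 and every 21% level was above those at CT4 (difference in response 3.52 ± 0.48, adjusted p = 1.38e-05). A high 21% level also marked Cdkn1a, at 188, 205 and 117 CPM in 6% oxygen and 169.7, 202 and 189.6 CPM in 21% oxygen at CT16 (4.39 ± 0.26, adjusted p = 1.34e-13), and Tat, at 3365, 4279.9 and 3453 CPM in 6% oxygen and 3665, 3419 and 4679 CPM in 21% oxygen at CT16 (2.35 ± 0.26, adjusted p = 4.51e-07).

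Further differences between CT4 and CT16 were 3.48 ± 0.63 for Ddit4, 2.70 ± 0.37 for Ndrg1, 2.14 ± 0.42 for G6pc, 4.17 ± 0.79 for Pdk4 and 4.31 ± 0.74 for Plin4. Cyp4a14, a PPARA target that hydroxylates fatty acids, was at 7.9, 4.74 and 93.3 CPM in 6% oxygen and 1.44, 4.75 and 0.66 CPM in 21% oxygen at CT4, not called there (adjusted p = 0.106), and at 3.78, 15.7 and 10.1 CPM in 6% oxygen and 441, 886 and 279.7 CPM in 21% oxygen at CT16 (difference 9.36 ± 1.90, adjusted p = 0.00166). Its paralogs could share reads, and HLKO CT4 6% C was high on its own. Lower responses at CT4 were called for Dbp (-3.61 ± 0.58), Per3 (-3.03 ± 0.51), Hspa1b (-3.03 ± 0.54), Srebf1 (-2.35 ± 0.32) and Angptl8 (-4.41 ± 0.70), and a higher one for Arntl (2.66 ± 0.51). Srebf1 rose at both times, at CT16 to 697, 702 and 885 CPM in 6% oxygen, against 66.8, 92.9 and 96.3 CPM in 21% oxygen. Cish at CT16 was at 7.56, 2.73 and 75.8 CPM in 6% oxygen and 29.9, 25.6 and 5.88 CPM in 21% oxygen, with HLKO CT16 6% C high, and its difference (-4.59 ± 1.07, adjusted p = 0.00596) was lost without that library (adjusted p = 0.418).

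A few genes with large changes at CT4, picked out after their values were seen, are given here with their levels in other groups. Mug2 (chromosome 6, 122006761 to 122085965), a protease inhibitor with paralogs, was at 222, 227 and 173 CPM in 6% oxygen and 22.03, 16.8 and 13.2 CPM in 21% oxygen at CT4 (3.60 ± 0.54), but at 29.6, 183 and 34.9 CPM in 6% oxygen and 391, 175 and 37.5 CPM in 21% oxygen at CT16. Camk2b (chromosome 11, 5969644 to 6066362), a calcium-dependent kinase, was at 0.624, 0 and 0.801 CPM in 6% oxygen and 13.9, 13.6 and 8.25 CPM in 21% oxygen at CT4 (fell by 4.71 ± 0.82), and at 20.2, 0 and 1.68 CPM in 6% oxygen and 0.415, 0.914 and 0.367 CPM in 21% oxygen at CT16. Pttg1 (chromosome 11, 43420250 to 43426251), on the same chromosome, was at 9.57, 7.41 and 10.01 CPM in 6% oxygen and 37.4, 37.7 and 37.9 CPM in 21% oxygen at CT4, and at 67.4, 5.12 and 39.2 CPM in 6% oxygen and 8.3, 6.09 and 6.61 CPM in 21% oxygen at CT16, where HLKO CT16 6% B stayed low while A and C were high. C4a (chromosome 17, 34809092 to 34823464) was at 35.1, 52.7 and 38.8 CPM in 6% oxygen and 271, 211 and 274 CPM in 21% oxygen at CT4, and its neighbour Cyp21a1 (chromosome 17, 34801348 to 34804561) at 0.416, 2.06 and 1.2 CPM in 6% oxygen and 21.1, 7.92 and 20.5 CPM in 21% oxygen. At CT16 C4a was at 146, 53.6 and 159 CPM in 6% oxygen and 78.8, 52.1 and 94.4 CPM in 21% oxygen, and the groups overlapped. Abhd1 (chromosome 5, 30950066 to 30955091) was at 6.45, 4.12 and 50.1 CPM in 6% oxygen and 118, 103 and 133 CPM in 21% oxygen, against no more than 6.08 CPM in any Alb library at CT4. The part of inherited differences between the mice in these 6 genes was not tested, and no label gives litters or further breeding.

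**Figure D5:**
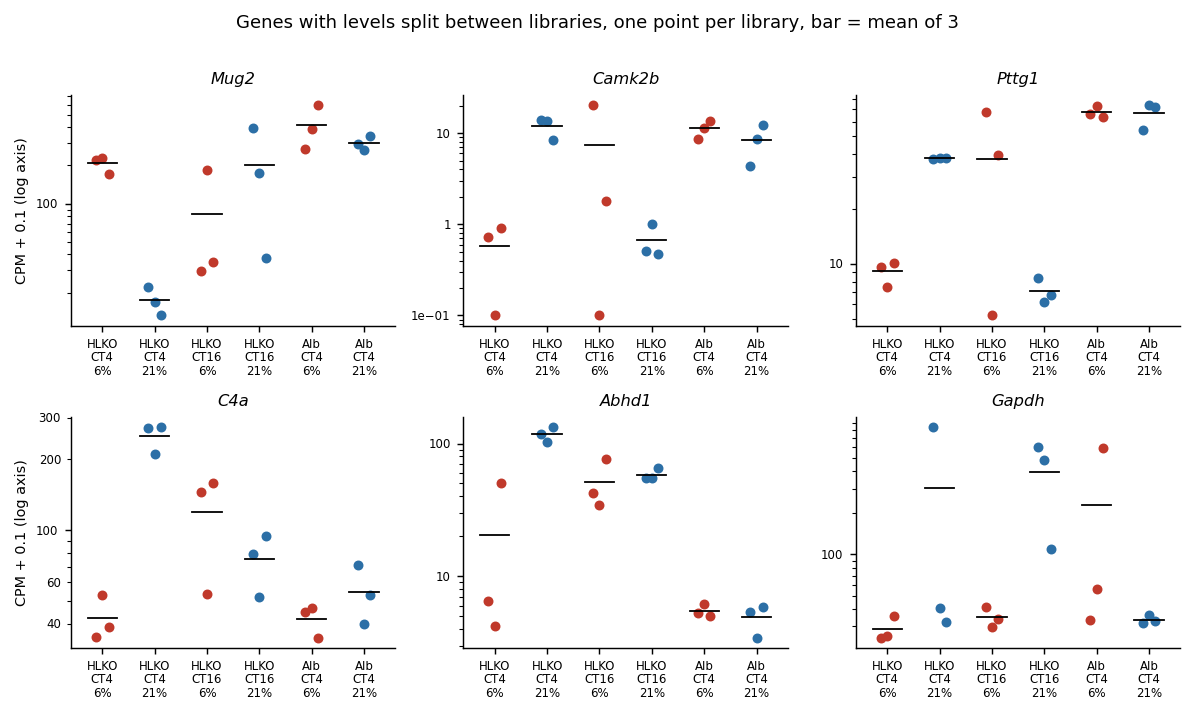
Levels of 6 genes (CPM + 0.1, log axis) in each library of HLKO livers at CT4 and CT16 and Alb livers at CT4 under 6% (red) and 21% oxygen (blue); bars are means of 3 libraries. Mug2, Camk2b and Pttg1 split among HLKO libraries at CT16 as well, and Gapdh is high in a few libraries whatever their oxygen.

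Markers of liver cell types were counted in the same way. Their summed levels are again scaled to library totals without TMM and include markers that were not tested. Over all tested genes in HLKO at CT4, 7.71% were called higher and 6.72% lower, and 2755 of 9483 had an unadjusted p under 0.05. In Alb at CT4, 5.28% were called higher. Of 13 tested hepatocyte markers 2, Trf and Apoa1, fell in HLKO at CT4 (1 without 6% A, 21% A or 21% C). Of 15 tested Kupffer cell and macrophage markers 0 were called by edgeR and 0 by DESeq2, and 1 had an unadjusted p under 0.05, with summed levels of 364.5 to 425.2 CPM in 6% oxygen and 326.7 to 481.9 CPM in 21% oxygen, while in Alb livers 10 of them rose (3 without Alb CT4 6% C or 21% B). The difference in response was called for 1 of the 15 and had an unadjusted p under 0.05 for 10, all of them lower in HLKO. Over all tested genes the difference was called for 1.58%, and 1699 of 9483 had an unadjusted p under 0.05. Of 20 tested liver endothelial markers 3 rose in HLKO (1 without 6% A, 6% B or 21% B, 2 without 21% A or C), with summed levels of 350.0 to 471.6 CPM in 6% oxygen and 323.0 to 341.6 CPM in 21% oxygen. In Alb livers 8 of the 20 rose (3 without Alb CT4 21% B), and 0 of 20 differences in response were called, with 2 at an unadjusted p under 0.05. The VEGF receptor Flt1 was at 16.01, 14.8 and 14.8 CPM in 6% oxygen and 8.62, 6.02 and 5.94 CPM in 21% oxygen (1.18 ± 0.27, adjusted p = 0.00256). Stellate cell markers summed to 300.4 to 355.2 CPM in 6% oxygen and 227.0 to 288.3 CPM in 21% oxygen, with 0 of 11 called by edgeR, 0 by DESeq2 and 0 at an unadjusted p under 0.05. Vegfa and other HIF targets are also made by such cells, which keep Hif1a, and the part of these cells in the rises was not tested.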

How the data were processed

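Total RNA of mouse liver was sequenced. Per the submitters' processing notes, reads were handled with cutadapt, STAR 2.4.2a, HTSeq and DESeq2 on mm10. The authors deposited raw read counts per gene and a normalized signal per gene. Within each library the normalized values were proportional to the counts, so only the counts were tested. Strand handling is not given in the sources used here, so overlapping and antisense genes cannot be told apart, and reads of close paralogs may be split.

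Counts of 36 libraries in 12 groups of 3 were fitted together in edgeR 4.0.16 (R 4.3.3): filterByExpr with a count minimum of 10, TMM scaling, quasi-likelihood test, Benjamini-Hochberg adjustment, threshold 0.05. The steps were tested on simulated data. An exact permutation test of 3 against 3 libraries cannot go below p = 0.1. Alternatives were DESeq2 1.42.0, RLE scaling, no low-count filter, the compared groups alone, a replicate block, and each library left out. The other 3 of the 39 samples were not analysed here. Promoters are from RefSeq (GRCm38.p6) and gene positions from GENCODE (GRCm38), and positions were matched for 98.5% of tested genes. Figures were drawn with matplotlib 3.10.9.

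Named genes were Hif1a, Epas1, Vegfa, Igfbp1, Ddit4, Arntl, Dbp, Nr1d1 and Per1, the up to 12 called genes per direction with the largest change, groups that do not overlap and a group mean of 5 CPM or more, up to 4 called members per list, and up to 8 genes per direction for each difference in response. The text gives a choice of these. Another 32 genes were named after their values were seen. The members and lists were chosen with earlier results of these data known. Some genes given by this rule are not reported here.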

Additional observations from a re-analysis of the deposited data

Results flagged for a closer look

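For 12 genes named above, the hypoxia response at CT4 differed between HLKO and Alb livers in the edgeR test of the difference itself, given as HLKO minus Alb on the log2 scale: Igsf11 3.35 (adjusted p = 0.000462), Eci2 0.97 (adjusted p = 0.0186), Acot1 3.02 (adjusted p = 0.0139), Slc22a5 1.61 (adjusted p = 0.0187), Hsdl2 1.18 (adjusted p = 0.0139), Hsd17b13 1.66 (adjusted p = 0.0186), Xbp1 -1.49 (adjusted p = 0.0139), Mug2 3.12 (adjusted p = 0.0193), Camk2b -5.16 (adjusted p = 0.0139), Pttg1 -2.10 (adjusted p = 0.0228), C4a -2.18 (adjusted p = 0.0106) and Gapdh -6.21 (adjusted p = 0.0426). The genes were chosen after their values were seen. Without Alb CT4 21% B, adjusted p exceeded 0.05 for Acot1 (0.0887), Slc22a5 (0.0768), Hsdl2 (0.0711), Hsd17b13 (0.0543), Xbp1 (0.0574), Mug2 (0.0528), Pttg1 (0.0605) and Gapdh (0.133). Mug2 also lost the call without HLKO CT4 21% C (0.054), Pttg1 without HLKO CT4 6% A (0.0513), HLKO CT4 6% B (0.0586) or Alb CT4 6% B (0.0516), and Gapdh under most settings tried.

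For 18 genes the response of HLKO livers differed between CT4 and CT16, given as CT4 minus CT16 on the log2 scale: Igfbp1 3.52 (adjusted p = 1.38e-05), Ddit4 3.48 (adjusted p = 0.000496), Ndrg1 2.70 (adjusted p = 1.38e-05), Cdkn1a 4.39 (adjusted p = 1.34e-13), Tat 2.35 (adjusted p = 4.51e-07), G6pc 2.14 (adjusted p = 0.00116), Pdk4 4.17 (adjusted p = 0.000878), Plin4 4.31 (adjusted p = 0.000265), Cyp4a14 9.36 (adjusted p = 0.00166), Dbp -3.61 (adjusted p = 0.000133), Per3 -3.03 (adjusted p = 0.000229), Arntl 2.66 (adjusted p = 0.000922), Hspa1b -3.03 (adjusted p = 0.00039), Srebf1 -2.35 (adjusted p = 1.12e-05), Angptl8 -4.41 (adjusted p = 0.000129), Cish -4.59 (adjusted p = 0.00596), Mug2 4.84 (adjusted p = 4.27e-05) and Camk2b -7.90 (adjusted p = 0.000168). Of these, Cish lost the call under the alternatives tried, without HLKO CT16 6% C (adjusted p = 0.418). By the levels given above, Mug2 varied widely between CT16 libraries at either oxygen level, and Camk2b at CT16 was high in HLKO CT16 6% A alone. Cyp4a14 at CT4 was high in HLKO CT4 6% C alone.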

How the results depend on the processing

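For the response of HLKO livers at CT4, the count of 1368 calls lay within 1.5 times under DESeq2 (1279), RLE scaling (1382), no filter (1345), the compared groups alone (1350) and the replicate block (1174), and ran from 903 to 1163 with each library left out. For Alb at CT4 the 869 calls became 458 with the compared groups alone and 725 with the replicate block, and 497 to 777 with a library left out. For HLKO at CT16 the 924 calls became 421 with the compared groups alone and 802 with the replicate block, and 502 to 1021 with a library left out. The 150 differences between HLKO and Alb became 234 under DESeq2, 81 with the compared groups alone and 115 with the replicate block, and 17 to 186 with a library left out. The 819 differences between CT4 and CT16 became 691 with the replicate block, and 463 to 1221 with a library left out. Leaving out a library also leaves fewer samples, and the cause of the other shifts was not tested. RLE scaling moved the median of all genes to 0.01, against 0.0286, and the share of higher calls to 50.7%, against 53.4%.

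Between libraries with the same letter, the deviations from the group means had r = -0.00238, -0.0199 and -0.0108 (A, B and C) in HLKO at CT4, 0.2, -0.115 and 0.0091 in Alb at CT4 and -0.00201, 0.0719 and -0.0723 in HLKO at CT16. No set had every r over 0.1, so the letters were not taken to pair the libraries, and not every library correlated best with its own letter. Of 201 genes checked, 178 were called, and 132 of these kept the call under every alternative run while 46 lost it under at least 1. With a library left out, 3 uncalled genes reversed, with the cause not tested: Tbxa2r ran from -0.90 to 0.00263 (without HLKO CT4 21% A), Fkbp5 from -0.32 to 0.050 (without HLKO CT4 21% B) and Higd1a from -0.29 to 0.0767 (without HLKO CT4 6% A). Genes at a few CPM rest on few counts in libraries of 2017236 to 4684547 counts, so a change in them may be missed at this depth.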
